A study of Mus musculus with 8 samples.

Results

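The comparison set XY wild type mouse gonads against XX wild type mouse gonads at embryonic day 11.5. It used the 4 wild type libraries, 2 XY and 2 XX, of the 8 libraries in the series, chosen by the sex and genotype in their labels. The other 4 libraries, 2 XX and 2 XY, came from gonads of the same age that were null for Kdm6b, a histone H3 lysine 27 demethylase, and served to show where the wild type sex difference departed from that of the mutant. No group carried another allele or agent, the tissue was untreated, and each library pooled 2 pairs of gonads from embryos sexed and genotyped beforehand. The sources used here do not state the strain, the extent of the Kdm6b deletion, or whether replicate pools were taken from different litters. The p-values therefore measure the spread between these pools, which may be technical. Only autosomal genes were compared, since the dose of sex-linked genes differs between XX and XY cells.

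The gonad forms as a bipotential ridge whose supporting cells can become Sertoli cells of a testis or granulosa cells of an ovary. In XY embryos the Y-linked switch Sry turns on Sox9, which with FGF9, prostaglandin D2 and further factors drives Sertoli cell differentiation. In XX embryos WNT4, RSPO1 and beta-catenin signalling, followed by FOXL2, support the ovarian fate. The ridge itself is built under transcription factors shared by both sexes, among them WT1, GATA4, NR5A1, LHX9 and EMX2, several of which also act upstream of Sry. This age lies at the start of that divergence.

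The sex-linked genes matched the sex label of every library. Sry was at 57.4 and 73.8 in XY wild type, in the normalized counts as deposited, and at 0 in every XX library. The labels name pre-Sertoli cells for XY and pre-granulosa cells for XX, but give gonad as the tissue and describe no sorting. Among the markers of pre-Sertoli cells, Sox9 was well detected, whereas Amh, the hormone that removes the female ducts, stood at only 7.85 to 13.9 in the 4 libraries. Foxl2, the defining marker of pre-granulosa cells, was at 13.6 and 4.05 in XX and at 1.98 and 1.99 in XY, below the level needed to enter the test and, in XY, under the 3 counts that a value of 0 allows. Markers of blood, endothelium, germ cells and mesonephros were present in all libraries, so the values are those of whole tissue. In such bulk samples, fewer cells of a type and less RNA per cell cannot be told apart. The wild type libraries held 19121394 to 19525527 counts. The XX wild type libraries stood further from each other than any other replicate pair, with a median absolute log2 difference per gene of 0.24, against 0.134 between the XY wild type libraries and 0.124 and 0.178 between the null pairs.

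No autosomal gene passed an adjusted p of 0.05 by limma, a linear model with a spread shared across genes, among the 16464 genes tested (0% called). The smallest adjusted p was 0.311, and an exact permutation test of 2 against 2 libraries cannot go below p = 0.333. Without the first XX wild type library 8 genes were called and without the second XX wild type library 2 were, each time with a lone XX library assumed to vary like the XY pair. At an unadjusted p under 0.05 there were 1384 genes (8.41%), 855 higher in XY (5.19%) and 529 higher in XX (3.21%). Groups did not overlap, meaning that both XY libraries lay on 1 side of both XX libraries, for 7104 genes (43.1%), of which 3607 were higher in XY (21.9%) and 3497 in XX (21.2%). A narrower class, called strongly separated here, also required a difference of at least 2-fold on the log2(value + 1) scale and a mean of at least 50 in the higher group. It held 240 genes (1.46%), 76 higher in XY (0.462%) and 164 higher in XX (0.996%). Unless stated otherwise, values below are normalized counts brought to 1 scale over the 4 wild type libraries, and every log2 fold change is XY minus XX on the log2(value + 1) scale.

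Genes of the testis pathway stood mostly higher in the XY gonads, although none passed the adjusted threshold. Of 32 genes on the list, 28 were abundant enough to test, and 23 of these had a positive log2 fold change, with a median of 0.29, against 48.7% positive and a median of -0.01 over all genes tested. Both XY libraries lay above both XX libraries for 13 of the 28 and below them for 3, against 21.9% and 21.2% of all genes tested. The strongly separated class, 1.46% of all genes tested, held 7 of the 28: Inhbb, Dmrt1, Cbln4, Cyp26b1, Kctd14 and Mro were higher in XY and Fgf9 was higher in XX. The 4 members too low to test were Defb19, Hsd17b1, Hsd17b3 and Ptgds, the synthase of prostaglandin D2.

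Inhbb encodes the beta B subunit of activins and inhibins, which Sertoli cells secrete. It lies on chromosome 1 at 119415465 to 119422248 (ENSMUSG00000037035.5, GRCm38). Its level was 200.2 and 143 in the XX libraries and 552 and 609 in the XY libraries, so that both XY values were more than 2-fold above the higher XX value. The means were 172 ± 40.2 and 580.2 ± 40.5 (SD, n = 2 each), and the log2 fold change was 1.77 (SE 0.20, limma 95% interval 1.26 to 2.28, limma adjusted p = 0.41). Dmrt1, a transcription factor that maintains the male fate of Sertoli cells, lies on chromosome 19 at 25505618 to 25604329 (ENSMUSG00000024837.15). It stood at 43.2 and 36.4 in XX and at 125 and 136 in XY, a log2 fold change of 1.69 (SE 0.24, limma adjusted p = 0.41). Cbln4, a secreted protein made by early Sertoli cells, lies on chromosome 2 at 172036233 to 172043466 (ENSMUSG00000067578.3). It stood at 18.6 and 25.2 in XX and at 87.5 and 110.2 in XY, a log2 fold change of 2.13 (SE 0.31, limma adjusted p = 0.41).

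The promoter windows of Cbln4 and Inhbb are shown as those of the 2 testis list genes with the largest log2 fold changes. Windows of the other genes named here are not used. Each window runs from 250 bases before to 50 bases after the transcript start, 5′ to 3′ on the gene's strand, from RefSeq (GRCm38.p6), and the capitals mark the core motif AACAAT of SRY and SOX factors, searched on both strands as AACAAT and ATTGTT.

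Cbln4, chr2:172043417-172043716, minus strand: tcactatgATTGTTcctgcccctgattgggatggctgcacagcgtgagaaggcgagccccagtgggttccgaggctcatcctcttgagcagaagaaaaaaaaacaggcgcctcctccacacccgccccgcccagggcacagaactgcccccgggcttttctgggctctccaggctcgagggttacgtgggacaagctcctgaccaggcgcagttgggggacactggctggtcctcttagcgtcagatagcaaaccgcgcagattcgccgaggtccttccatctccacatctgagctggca

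Inhbb, chr1:119422199-119422498, minus strand: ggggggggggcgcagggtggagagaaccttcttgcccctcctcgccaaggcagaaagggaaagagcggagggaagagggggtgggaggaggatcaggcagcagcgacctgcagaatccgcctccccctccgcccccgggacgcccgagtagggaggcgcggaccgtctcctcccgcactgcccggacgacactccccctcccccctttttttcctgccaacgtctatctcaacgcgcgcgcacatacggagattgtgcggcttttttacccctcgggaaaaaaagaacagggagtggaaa

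The Cbln4 window held 1 match, whose first base lay 242 bases before the start, and the Inhbb window held none. The motif is short, and 10.7% of all 32851 windows of this length held it. The share was 6% among windows of tested autosomal genes, 4 of 52 windows (7.69%) among strongly separated genes higher in XY and 5 of 137 (3.65%) among those higher in XX. Both windows were rich in GC, at 60.3% for Cbln4 and 64.3% for Inhbb, with 15 and 23 CpG pairs, against medians of 52.7% and 7 over all windows. A match describes these letters and not a bound site.

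Further down the testis list, the retinoic acid-degrading enzyme gene Cyp26b1 stood at 460 and 515 in XX and at 1157 and 879 in XY, a log2 fold change of 1.05 (SE 0.16, limma adjusted p = 0.46). Kctd14, named here after its values were seen, stood at 2222 and 1262 in XX and at 4170 and 3361 in XY. Gadd45g, a stress-response gene needed for timely Sry expression, stood at 250.2 and 219 in XX and at 384 and 474 in XY, a log2 fold change of 0.86 (SE 0.17). In these 3 genes the lowest XY value exceeded the highest XX value. Sox13, also named after its values were seen, stood at 790.0 and 804 in XX and at 1140.45 and 1137 in XY, a smaller log2 fold change of 0.51 (SE 0.09).

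The genes at the centre of the Sertoli program did not separate in the same way. Sox9, the transcription factor directly downstream of Sry, stood at 521 and 768 in XX and at 904 and 764 in XY, so that the groups overlapped (log2 fold change 0.39, SE 0.21, limma adjusted p = 0.62). Fgf9, the growth factor that sustains Sox9, was lower in XY, at 111 and 57.6, than in XX, at 139 and 202 (log2 fold change -1.06, SE 0.38, limma adjusted p = 0.58). Amh had a log2 fold change of 0.25 (SE 0.47) at its low level. Sox8, a relative of Sox9, had a log2 fold change of 0.00 (SE 0.26).

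**Figure D1:**
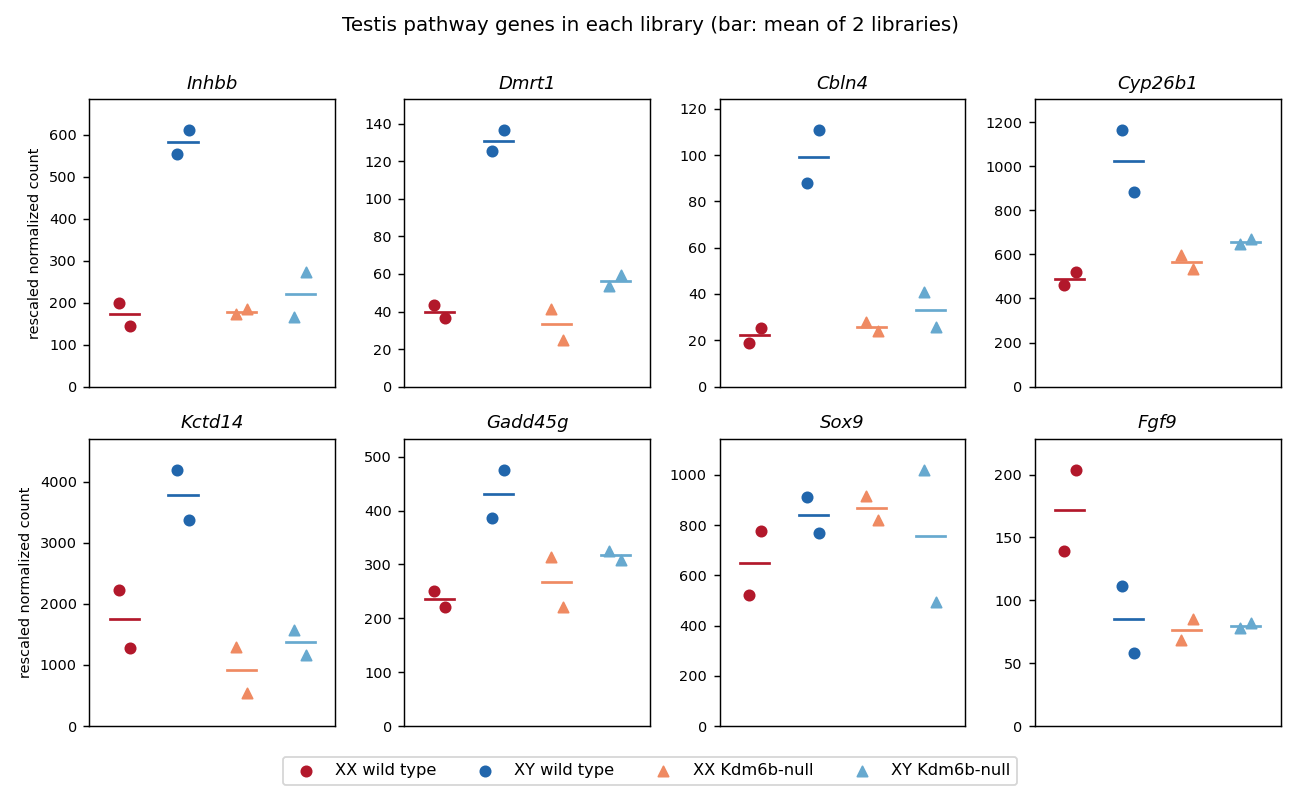
Rescaled normalized counts (vertical axes, linear, starting at 0) of 8 testis pathway genes in each of the 8 libraries, with circles for wild type, triangles for Kdm6b-null and bars for the mean of 2 libraries. The XY wild type libraries lie above the other 6 libraries for Inhbb, Dmrt1, Cbln4, Cyp26b1, Kctd14 and Gadd45g, whereas the groups overlap for Sox9 and the XX wild type libraries are the highest for Fgf9.

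Transcription factors of the early gonad and regulators of Sry showed a similar lean towards XY. All 22 genes of this list were tested, 18 had a positive log2 fold change, and the median was 0.33. Both XY libraries lay above both XX libraries for 12 genes and below them for 3, against 21.9% and 21.2% of all genes tested. Nr5a1, a nuclear receptor required for gonad and adrenal formation and for steroid production, lies on chromosome 2 at 38692656 to 38714542 (ENSMUSG00000026751.14). It stood at 617 and 312 in XX and at 1107 and 1252 in XY, a log2 fold change of 1.42 (SE 0.33, limma adjusted p = 0.57). The spread within XX was wide, and the log2 fold change was 0.93 without the second XX library and 1.91 without the first.

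Emx2, a homeobox gene needed for the gonadal epithelium, stood at 1552 and 1137 in XX and at 2499 and 2800 in XY (log2 fold change 0.99, SE 0.17). Lhx9, a LIM homeobox gene needed for ridge growth, stood at 1396 and 917 in XX and at 1688 and 2220 in XY (log2 fold change 0.77, SE 0.24). Gata4, a zinc finger factor that starts ridge formation, stood at 1029 and 1520 in XX and at 1720 and 2622 in XY (log2 fold change 0.76, SE 0.27). None of these groups overlapped. Wt1, a zinc finger factor of the coelomic epithelium and supporting cells, stood at 3998 and 3027 in XX and at 5605 and 5517 in XY (log2 fold change 0.68, SE 0.15). Cited2, a coactivator that works with WT1 and NR5A1, stood at 849 and 848 in XX and at 1128 and 1325 in XY (log2 fold change 0.53, SE 0.11). Limma adjusted p for these 5 genes lay between 0.47 and 0.58.

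Genes of the ovary pathway did not stand higher in the XX gonads as a group. Of 24 genes, 23 were tested, 14 had a positive log2 fold change towards XY, and the median was 0.15. Both XY libraries lay above both XX libraries for 9 genes and below them for 2, Irx3 and Sp5, against 21.9% and 21.2% of all genes tested. Wnt4, the signal required for ovary formation, lies on chromosome 4 at 137277489 to 137299726 (ENSMUSG00000036856.4). It stood at 1427 and 1108 in XX and at 2203 and 2514 in XY, so that both XY values exceeded both XX values (log2 fold change 0.90, SE 0.15, limma adjusted p = 0.47). Rspo1, which amplifies WNT signalling in the ovary, overlapped between the sexes at 626 and 669 in XX and 638 and 581 in XY (log2 fold change -0.09, SE 0.11, limma 95% interval -0.37 to 0.20).

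Fst, an activin antagonist downstream of Wnt4 in the ovary, had a log2 fold change of 0.00 (SE 0.24), and its sign turned with the library left out. Axin2, a read-out of beta-catenin signalling, had -0.05 (SE 0.20) and turned in the same way. Lef1, a transcription factor of the same pathway, stood at 402 and 421 in XX and at 530 and 509 in XY (log2 fold change 0.33, SE 0.11). Irx3, a homeobox gene of pre-granulosa cells, was the clearest of the list on the XX side, at 223 and 211 in XX and at 156 and 100.3 in XY (log2 fold change -0.79, SE 0.26, limma adjusted p = 0.57). Runx1, a factor that supports the granulosa cell fate, stood at 246 and 240 in XX and at 270.4 and 361 in XY (log2 fold change 0.36, SE 0.18). Bmp2, a ligand made in the early ovary, had a log2 fold change of 0.28 (SE 0.39), which turned negative without either second replicate library. The homeobox genes Msx1 and Msx2, both higher in XY, were the 2 strongly separated members, a class of 1.46% of all genes tested. Msx1 stood at 93.2 and 134 in XX and at 244 and 315 in XY, and Msx2 at 37.3 and 38.4 in XX and at 75.7 and 98.3 in XY.

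**Figure D2:**
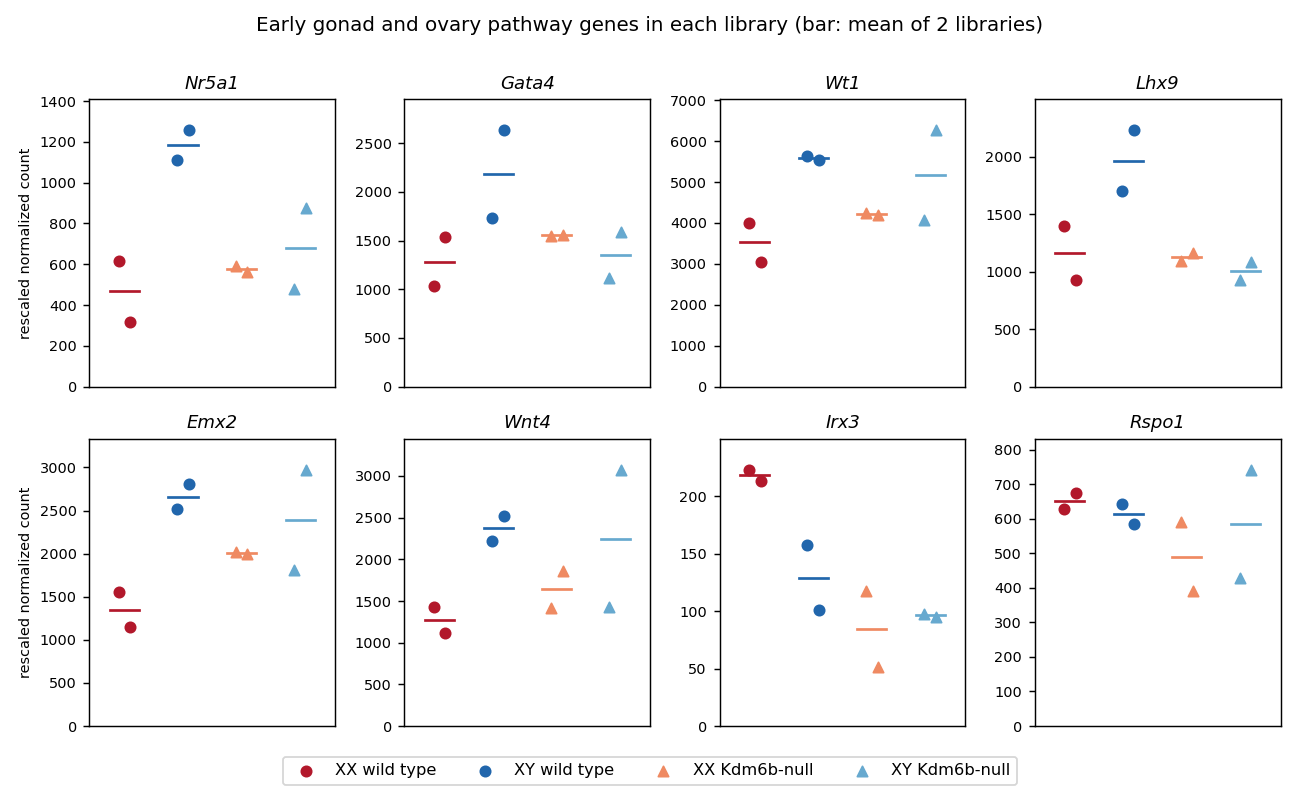
Rescaled normalized counts (vertical axes, linear, starting at 0) of 5 early gonad genes and 3 ovary pathway genes in each of the 8 libraries, with circles for wild type, triangles for Kdm6b-null and bars for the mean of 2 libraries. Both XY wild type libraries lie above both XX wild type libraries for Nr5a1, Gata4, Wt1, Lhx9, Emx2 and Wnt4 and below them for Irx3, and the groups overlap for Rspo1.

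Signalling components around these programs were taken next. Of 21 further WNT and beta-catenin components, 14 had a positive log2 fold change (median 0.17), and both XY libraries lay above both XX libraries for 11 and below for 1, against 21.9% and 21.2% of all genes tested. Lgr4, a receptor for R-spondins, stood at 1894 and 2117 in XX and at 3540 and 3998 in XY, a log2 fold change of 0.91 (SE 0.11, limma adjusted p = 0.41). The ligand gene Wnt6 had a log2 fold change of 0.78 (SE 0.24), and the co-receptor gene Lrp5 had 0.38 (SE 0.12). Among 15 genes of FGF signalling and its ERK feedback the median was 0.02. Etv4, a transcription factor induced by ERK, stood at 434 and 458 in XX and at 347 and 162 in XY (log2 fold change -0.91, SE 0.37), while the receptor gene Fgfr3 had 0.42 (SE 0.18) and the feedback inhibitor gene Spred1 had 0.18 (SE 0.09).

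Among 19 genes of activin, inhibin and BMP signalling 13 were positive (median 0.14), and the receptor gene Acvr1 (0.36, SE 0.10) and the inhibitory Smad7 (0.43, SE 0.17) and Smad6 (0.58, SE 0.23) had the smallest p. In the retinoic acid pathway 6 of 14 were positive (median -0.04). Cyp26a1, a retinoic acid-degrading enzyme gene related to Cyp26b1, stood at 39.3 and 24.2 in XX and at 3.93 and 11.9 in XY (log2 fold change -2.00, SE 0.61), the opposite direction to Cyp26b1. The retinoid receptor genes Rxra and Rara had 0.27 (SE 0.10) and 0.18 (SE 0.10). Hox genes, which give position along the body axis, had 15 of 37 positive (median -0.13), with Hoxc9 (0.58, SE 0.13), Hoxc6 (0.78, SE 0.20) and Hoxd3 (0.40, SE 0.14) at the smallest p. The Hox median was 0.06 without the second XX library and 0.14 without the second XY library, and the retinoic acid median was 0.14 without the first XX library and 0.15 without the second XY library.

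Cell cycle genes leaned neither way, with 7 of 19 positive and a median of -0.08. Their groups did not overlap in 1 gene, against 43.1% of all genes tested. The median was 0.15 without the second XX library. Ccnd1, a cyclin of the G1 phase, had -0.13 (SE 0.09), the mitotic kinase gene Plk1 had 0.32 (SE 0.23), and Mcm2, a replication licensing factor, had 0.20 (SE 0.15). Genes of hypoxia and glycolysis had a median of -0.01, with Pfkl at 0.41 (SE 0.13), Bnip3 at -0.37 (SE 0.14) and Car9 at -0.51 (SE 0.32). Immediate early genes, which respond quickly to handling, had a median of 0.15, with Jun at 0.18 (SE 0.10), Junb at 0.34 (SE 0.24) and Ier2 at 0.23 (SE 0.18). Among H3K27 demethylase and Polycomb genes 10 of 15 were positive (median 0.11). Kdm6b itself stood at 2243 and 2791 in XX and at 3378 and 3169 in XY (log2 fold change 0.39, SE 0.13), and the Polycomb genes Ring1 and Bmi1 had -0.46 (SE 0.11) and -0.25 (SE 0.13).

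The largest list differences came from cell types outside the supporting lineage. All 11 tested genes of liver and yolk sac were lower in XY (median -3.80). Of these, 8 were strongly separated with XX higher, against 0.996% of all genes tested. The summed level of the 11 genes was 15911 and 449 in XX wild type, against 235 and 86.8 in XY wild type. The summed levels in the null libraries, on the scale of all 8 libraries as are all summed levels here and below, ranged from 47.1 to 249. The first XX library alone was far above the rest. Ttr, a carrier of thyroid hormone, stood at 911 and 104 in XX and at 10.8 and 0.99 in XY (log2 fold change -5.99, SE 1.30), and the apolipoprotein gene Apoa1 at 1414 and 43.4 against 5.90 and 3.97 (-5.42, SE 1.60). Apob, another apolipoprotein gene, stood at 1082 and 83.8 in XX and at 10.8 and 11.9 in XY (-4.62, SE 1.18). Fga, a fibrinogen chain gene, stood at 247 and 4.04 in XX and at 0.98 and 0 in XY, and Apoa4 at 296 and 1.01 in XX and at 0 in both XY libraries. The XY values of both genes, and the second XX value of Apoa4, lay under the 3 counts that a value of 0 allows. Without the first XX library the median of the liver list was -1.88.

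Genes of red blood cells were all lower in XY (12 of 12, median -1.39). The strongly separated class with XX higher, 0.996% of all genes tested, held 9 of them. Their summed level was 197320 and 253500 in XX wild type, 61837 and 105350 in XY wild type and 71799 to 214400 in the null libraries. Hbb-bt, an adult beta globin gene, stood at 2186 and 2666 in XX and at 192 and 369 in XY (log2 fold change -3.18, SE 0.32, limma adjusted p = 0.31). The embryonic globin gene Hbb-y had -1.74 (SE 0.28) and the alpha globin gene Hba-a1 had -1.78 (SE 0.31). Some globin genes have near-identical copies, so the split of reads among such copies is uncertain.

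Adrenal cortex genes, which mark a neighbouring organ of shared origin, were lower in XY in 5 of 6 (median -1.49), with summed levels of 1220 and 811 in XX and 291 and 375 in XY. Hsd3b6, a steroid dehydrogenase gene, stood at 389 and 696 in XX and at 131 and 182 in XY (-1.75, SE 0.33), Mrap, an accessory protein of the ACTH receptor, had -1.22 (SE 0.53), and Cyp11b1, which makes corticosterone, stood at 422 and 7.07 in XX and at 4.92 and 1.99 in XY. Without the first XX library the adrenal median was -0.17. Steroid-producing Leydig cell genes had 8 of 9 negative (median -0.37), with the hedgehog effector gene Gli1 at -0.32 (SE 0.14), the electron carrier gene Fdx1 at -0.37 (SE 0.17) and Cyp17a1 at 27.5 and 8.08 in XX against 6.88 and 1.99 in XY. Macrophage genes had 12 of 13 negative (median -0.34), among them C1qb (-0.51, SE 0.14), Csf1r (-0.35, SE 0.14) and Tyrobp (-0.50, SE 0.29). The summed macrophage level was 4021 and 2962 in XX and 2664 and 2779 in XY. Without the first XX library the Leydig median was -0.04 and the macrophage median -0.11. Their part in the differences of the gonad genes above was not tested.

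Endothelial genes leaned to XY without exception in wild type. All 15 had a positive log2 fold change (median 0.43), and both XY libraries lay above both XX libraries for 13 (21.9% of all genes tested). Plvap, a protein of vessel fenestrae, stood at 955 and 1202 in XX and at 1624 and 2073 in XY (0.78, SE 0.17), and the transcription factor gene Sox18 at 234 and 276 against 379 and 418 (0.65, SE 0.15). The VEGF receptor gene Kdr had 0.51 (SE 0.15). The summed level of the list was 15307 and 16760 in XX wild type, 19393 and 25628 in XY wild type and 18638 to 22476 in the null libraries. Between the null libraries the log2 fold change was positive for only 1 of the 15 genes (median -0.21). For 9 of the 15 genes the XX wild type libraries were below the other 6, a pattern shown by 11.9% of all genes tested. Smooth muscle genes were positive in 6 of 7 (median 0.72), with Tagln at 0.81 (SE 0.25), Des at 0.27 (SE 0.10) and Acta2 at 0.84 (SE 0.39), but without the second XY library the median was 0.23.

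Mesonephros and duct genes were positive in 10 of 13 (median 0.62). Sim1, a transcription factor of the nephric duct, stood at 78.5 and 68.7 in XX and at 169 and 225 in XY (1.40, SE 0.23), and Wnt9b, a duct signal, at 274 and 202 against 470 and 393 (0.87, SE 0.20). Their summed level was 6091 and 5697 in XX and 7086 and 5957 in XY wild type, so the sums differed less than the single genes named. Germ cell genes had a median of 0.07, which became 0.72 without the first XX library and -0.46 without the second. Their summed level was 4055 and 2887 in XX and 3199 and 4019 in XY. Kit, a receptor of migrating germ cells, had 0.35 (SE 0.17), Ifitm3 had -0.61 (SE 0.31) and the RNA-binding factor gene Lin28a had 0.24 (SE 0.13). Neural crest and neuron genes had 4 of 12 positive (median -0.18). Hand2, a transcription factor of sympathetic neurons and limb mesenchyme, stood at 1232 and 1365 in XX and at 802 and 833 in XY (-0.66, SE 0.10), with Sox10 at -0.40 (SE 0.21). Without the first XX library the neural median was 0.09, so its lean rested on that library. Interstitial progenitor genes (median -0.01, 6 of 12 positive) held Arid5b at 0.40 (SE 0.11) and Pdgfrb at 0.35 (SE 0.11). Coelomic epithelium genes (median -0.14, 4 of 10 positive) held Lrrn4 at 0.45 (SE 0.11) and Upk1b at -0.997 (SE 0.42). Both medians turned positive without the first XX library, to 0.19 and 0.09.

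**Figure D3:**
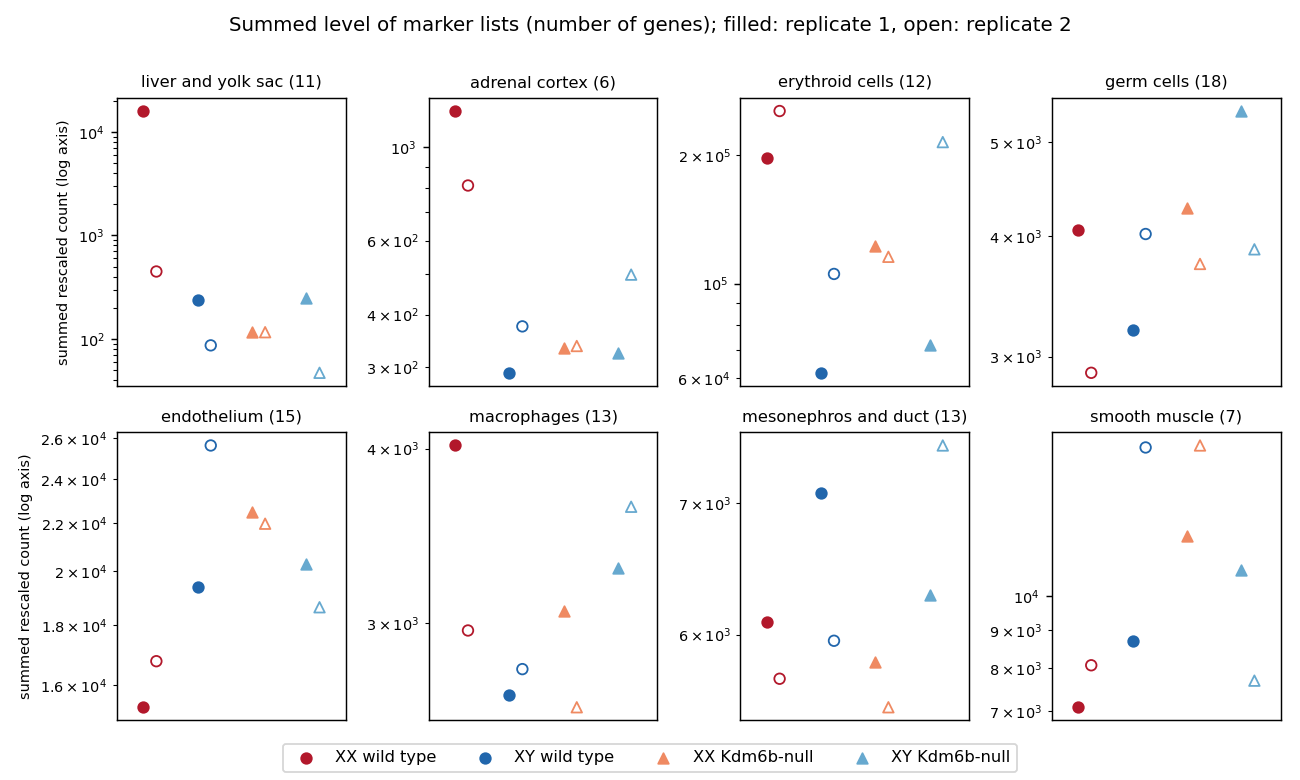
Summed rescaled counts of 8 marker lists (vertical axes logarithmic, each with its own range) in the 8 libraries, with circles for wild type, triangles for Kdm6b-null, filled for replicate 1 and open for replicate 2. The first XX wild type library stands apart for liver and yolk sac genes at 15911, and both XX wild type libraries are the highest for adrenal cortex genes and the lowest for endothelial genes.

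**Figure D4:**
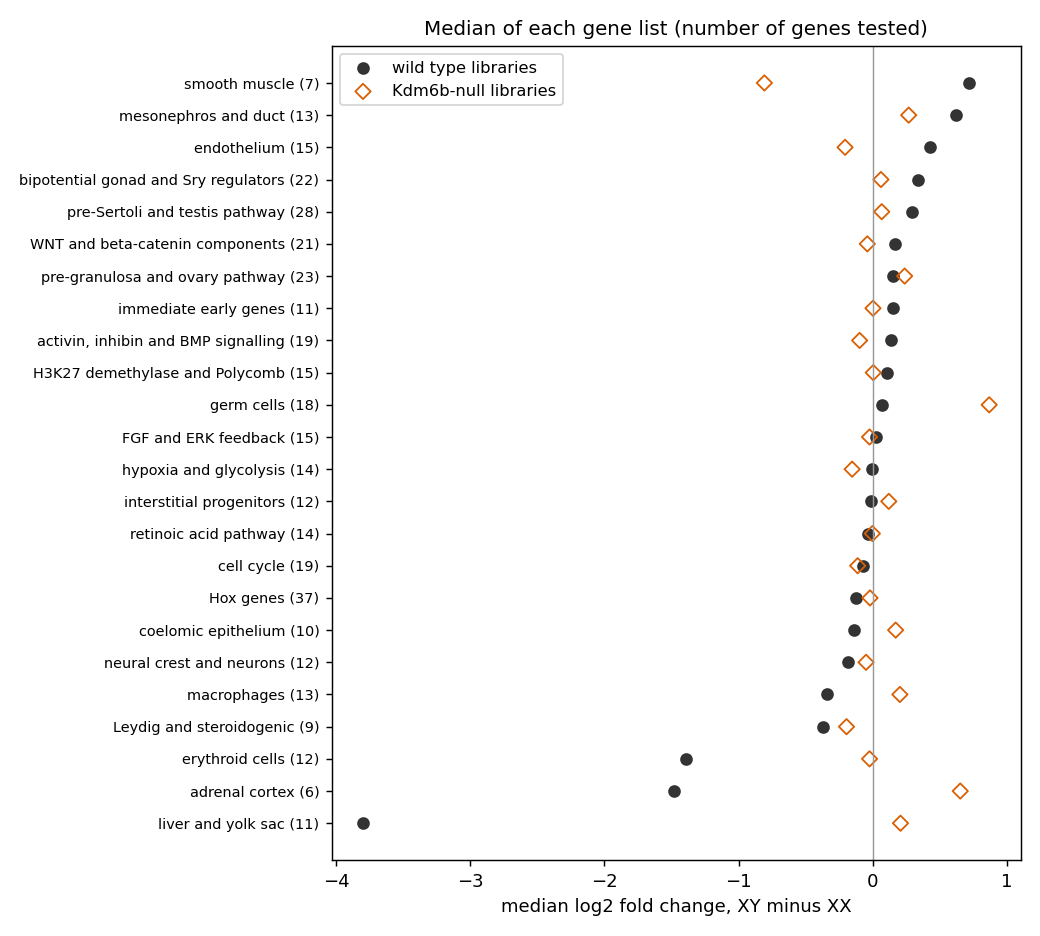
Median log2 fold change, XY minus XX (horizontal axis), of the tested members of 24 gene lists, with filled circles for wild type and open diamonds for Kdm6b-null libraries. The wild type medians run from -3.80 for liver and yolk sac genes to 0.72 for smooth muscle genes, and the testis and early gonad lists lie at 0.29 and 0.33.

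Among autosomal genes with a gene name, passing over predicted genes, those with the smallest p on the XY side were led by Alx1, an aristaless-related homeobox gene, on chromosome 10 at 103007846 to 103029054 (ENSMUSG00000036602.13). It stood at 289 and 288 in XX and at 638 and 686 in XY (log2 fold change 1.20, SE 0.11, limma adjusted p = 0.31). Hs6st1, a heparan sulfate sulfotransferase gene, stood at 1339 and 1347 in XX and at 2429 and 2650 in XY (0.92, SE 0.09). The lysosomal amidase gene Naaa stood at 416 and 389 against 812 and 834, and the ethanolamine kinase gene Etnk2 at 231 and 202 against 522 and 546. In all 4 the XX replicates lay close together and well below the XY replicates, which picking by smallest p favours. For Alx1 and Naaa the XX wild type libraries lay below the other 6 libraries, null ones included. For Hs6st1 and Etnk2 the XY wild type libraries lay above the other 6. Lama1, a basement membrane laminin chain (0.80, SE 0.09), Ecm1, an extracellular matrix protein (0.72, SE 0.09), the maltase gene Mgam (1.11, SE 0.13), the motor protein gene Myo5b (1.17, SE 0.14), Rnf213 (0.91, SE 0.12) and the orphan receptor gene Gpr37 (1.75, SE 0.24) followed, together with Inhbb and Lgr4. Among these, Lama1, Ecm1, Mgam, Myo5b, Rnf213 and Lgr4 had XX wild type below the other 6 libraries. Gpr37 and Inhbb had XY wild type above the other 6. The largest folds on this side, again passing over predicted genes, were those of Npbwr1, a neuropeptide receptor gene, at 5.89 and 34.3 in XX and 139 and 143 in XY, the channel gene Trpc7 (2.30, SE 0.66), the lipase gene Pnliprp2 (2.17, SE 0.50), Cbln4, and Actc1, a cardiac actin gene (1.95, SE 0.51).

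On the XX side, by the same rule, the smallest p belonged to Rps18, a ribosomal protein gene on chromosome 17 at 33951999 to 33956001 (ENSMUSG00000008668.14). It stood at 14146 and 14151 in XX and at 5881 and 5933 in XY (log2 fold change -1.26, SE 0.10, limma adjusted p = 0.31). Ribosomal protein genes have many near-identical pseudogene copies, so the assignment of its reads is uncertain. On the scale of all 8 libraries, Rps18 stood at 9100 and 5869 in XX null and at 10594 and 11872 in XY null. Its sex difference in the null thus had the opposite sign (log2 fold change 0.62, SE 0.19). Penk, the enkephalin precursor gene, lies on chromosome 4 at 4133531 to 4138819 (ENSMUSG00000045573.9) and stood at 227 and 245 in XX and at 29.5 and 17.9 in XY (-3.30, SE 0.31, limma adjusted p = 0.31). Rbp4, a retinol carrier gene abundant in liver, stood at 207 and 123 in XX and at 15.7 and 7.95 in XY (-3.72, SE 0.45). Both XX wild type libraries were high for each of these 3 genes. Ednrb, an endothelin receptor gene, stood at 1090.3 and 1051 against 658 and 657 (-0.70, SE 0.09), and Celf2, an RNA-binding protein gene, at 762 and 719 against 417 and 409 (-0.84, SE 0.11). Trim10, known from red cell maturation (-1.70, SE 0.22), Slfn14 (-2.31, SE 0.31), Ccdc92b (-1.70, SE 0.23), Hpse2 (-2.54, SE 0.34), Pkhd1l1 (-1.39, SE 0.20) and Ube2l6 (-0.94, SE 0.14) followed. Of the 164 strongly separated genes higher in XX, 22 were on any of the lists and 17 of these on the erythroid or liver lists, while of the 76 higher in XY, 11 were on any list and 0 on those 2.

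The sex difference of the Kdm6b-null libraries, which share no sample with the wild type comparison, was set beside that of wild type for these genes. Because the genes were chosen for a large wild type difference, smaller values are to be expected in libraries that did not choose them. Of the 76 strongly separated genes higher in XY wild type, 49 (64.5%) had the same sign in the null, with medians of 1.26 in wild type and 0.18 in the null. Of the 164 higher in XX wild type, 64 (39%) kept their sign, with medians of -1.39 and 0.10, against 45.9% of all genes. The difference between the wild type and null sex differences was tested across 8 libraries: limma called 0 of 16310 genes (0% called), with a smallest adjusted p of 0.202, while 1292 (7.92%) had an unadjusted p under 0.05. Without the second XX wild type library 27 genes were called. Within the null alone, the same fit called 1 gene between the sexes (0.00613%), and 263 had an unadjusted p under 0.05 (1.61%).

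On the scale of all 8 libraries, the null libraries stood for Inhbb at 172 and 184 in XX and at 167 and 273 in XY, all below both XY wild type libraries. Cbln4 stood at 27.7 and 24.1 in XX null and at 40.9 and 25.6 in XY null, and Dmrt1 at 41.6 and 25.1 in XX null and at 53.6 and 59.4 in XY null. The wild type sex difference exceeded that of the null by 1.51 (SE 0.35) for Inhbb, 1.81 (SE 0.46) for Cbln4 and 0.91 (SE 0.41) for Dmrt1 on the log2 scale, with limma adjusted p of 0.60, 0.60 and 0.63. Patterns over the 8 libraries were looked at after the values were seen. Of the 28 tested testis genes, 7 had both XY wild type libraries above all 6 others, a pattern of 3.33% of all genes tested, and so had 5 of the 22 early gonad genes, Nr5a1, Numb, Lhx9, Gata4 and Lhx1, and 2 of the 23 ovary genes, Kitl and Runx1. The other pattern, both XX wild type libraries below all 6 others, was that of 2 testis genes, 5 early gonad genes, among them Emx2, Wt1 and Cited2, and 4 ovary genes, against 11.9% of all genes tested. Among the 240 strongly separated genes, 8 had all 4 XY libraries above all 4 XX libraries, wild type and null together (1.07% of all genes tested): Etnk2, Gpr37, Dmrt1, Cyp26b1, Msx1, Trpc7, Lhx1 and Zscan10. Another 8 had all 4 XX libraries above (0.941%): BC002163, Phf24, Lmo3, Fez1, Tcerg1l, Dcdc2b, Prg4 and Cwc22. For Cwc22, only the first XX wild type and second XX null libraries were far above the rest. Its other XX libraries lay close to the XY libraries. All 240 were chosen because their wild type groups did not overlap, which is part of both patterns. The shares over all genes tested are therefore no measure of what to expect here.

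For other genes the XX wild type libraries were the ones that differed from the rest. Lgr4 stood at 3631 and 3544 in XX null and at 3409 and 3555 in XY null, close to XY wild type and above XX wild type. Penk stood at 21.8 and 26.1 in XX null and at 29.2 and 25.6 in XY null, close to XY wild type and below XX wild type. Over all genes tested, 9.24% had the XX wild type libraries above the other 6 and 11.9% had them below, whereas the XY wild type libraries were above in 3.33% and below in 2.98%. Of the 240 strongly separated genes, 86 (35.8%) had XX wild type above the other 6 and 36 (15%) had XY wild type above them. These shares partly reflect that 164 of the 240 were higher in XX and 76 in XY. Among the 164, XX wild type was above in 86 and XY wild type below in 29. Among the 76, XY wild type was above in 36 and XX wild type below in 22. Thus XX wild type was set apart more often only among those higher in XX. Among all 7104 genes whose groups did not overlap, XX wild type was above in 21.4% and below in 27.6%. XY wild type was above in 7.73% and below in 6.91%.

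**Figure D5:**
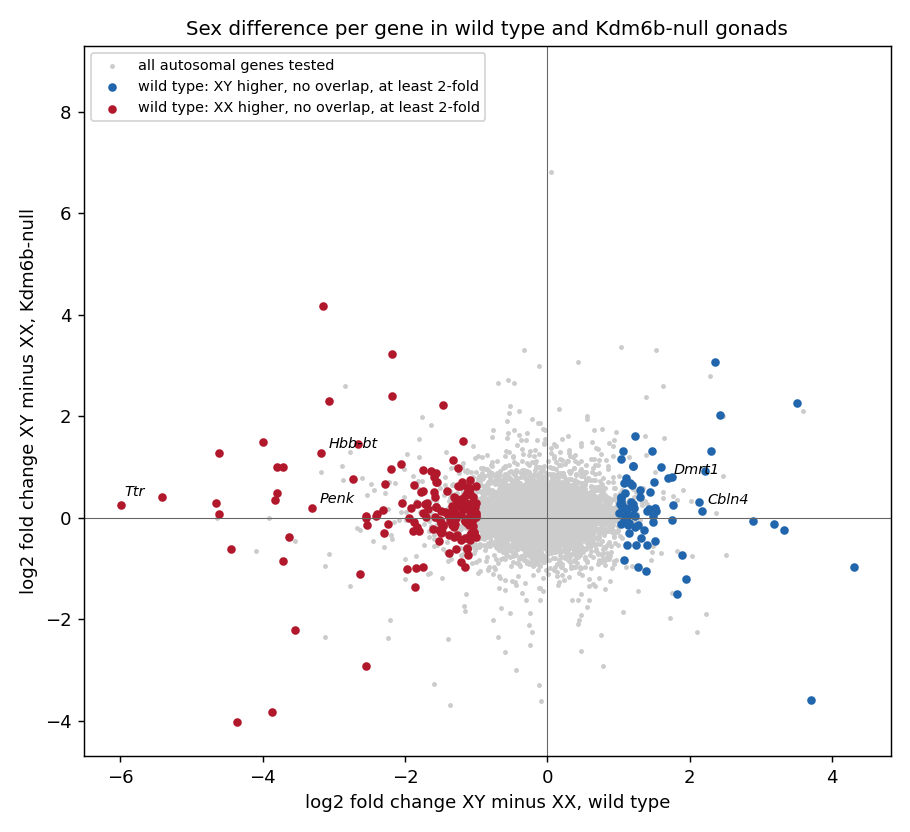
Log2 fold change, XY minus XX, in Kdm6b-null libraries (vertical axis) against that in wild type libraries (horizontal axis) for autosomal genes, with the strongly separated genes in blue where higher in XY and in red where higher in XX. The red genes lie on both sides of 0 on the vertical axis, with 64 of 164 below it, and 49 of 76 blue genes lie above it.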

How the data were processed

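Polyadenylated RNA from whole gonads was sequenced with paired reads, per the labels' protocols, which mention 4 samples where 8 are listed; all 8 were used. Tools listed in the submitters' processing notes, with the build GRCm38, are DESeq2 2.11.40.8, featureCounts 2.0.8, STAR 2.7.11 and cutadapt 4.9. The sources used here do not state the counting strand, so reads of a gene and an antisense partner may not be separated. The deposited signal is a count per gene that the authors divided by a size factor for its library, each sex having been normalized apart. Gene positions and symbols came from the authors' deposited comparison tables, whose fold changes were not used.

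Both tables were joined over 48440 genes, of which 44220 were autosomal, and each column was divided by 1 median-ratio factor over autosomal genes with a mean of at least 10. Differences in level between the sexes therefore rest on that rescaling. Limma 3.58.1 in R 4.3.3 was fitted to log2(value + 1) with the variance trend, on 2 residual degrees of freedom, and p-values were adjusted by Benjamini-Hochberg. Fold changes on this scale understate those of low genes. A value of 0 allows 3 counts, or 2.91 to 3.03 normalized counts in the wild type libraries, a limit that covers counting error only. No count model was run, because the deposited values are normalized, although they were whole multiples of a step for each library. Same-numbered wild type libraries did not deviate together (r = 0.000151 across genes), so the numbers were not taken as pairs. Comparisons with the null used 1 factor per column over all 8 libraries, so wild type values on that scale differ slightly from those of the 4 libraries.

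The members and the 24 gene lists were chosen with earlier results of these data known. Named genes were a fixed set, the 3 members of smallest p in each list, the 12 of smallest p in each direction and the 5 of largest fold among genes with groups that did not overlap and a higher mean of at least 50, leaving out predicted genes (11 of the 76 strongly separated genes higher in XY and 21 of the 164 higher in XX were predicted); some of these genes are not reported here. Alternatives changed the scaling, pseudocount, filter, variance trend, libraries fitted and replicate block, and left out each library.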

Additional observations from a re-analysis of the deposited data

How the results depend on the processing

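The count of 0 genes called held with trimmed mean or upper quartile scaling, no joint rescaling, pseudocounts of 0.5 and 8, no filter on low values, a mean of at least 50 and no variance trend. With all 8 libraries in 1 fit 2 genes were called, Hs6st1 (log2 fold change 0.92) and Penk (-3.30), both at a limma adjusted p of 0.0479. With the replicate number as a block 2 were called, Ttr (-5.99) and Hbb-bt (-3.18), both at 0.0292, although the numbers are not known to pair the libraries. Leaving out 1 library gave 0 to 8 called genes, and 0 to 27 for the difference between the wild type and null sex differences; with 1 library left in a group, that library is assumed to vary like the others. The strongly separated class held 61 to 82 genes higher in XY and 117 to 181 higher in XX under the settings that kept all libraries. With 1 library left out it held 93 to 167 and 183 to 448, because a lone library overlaps less often. Without the first XX wild type library, 63 of the 76 genes and 104 of the 164 were shared with the full set. Without the second, 48 and 122 were shared.

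The testis list median was 0.25 with upper quartile scaling and ranged from 0.23 to 0.38 with 1 library left out. The ovary list median then ranged from 0.11 to 0.28 and the early gonad median from 0.20 to 0.38. Fst turned sign to 0.011 with no joint rescaling. With 1 library left out Fst ranged from -0.23 to 0.23, Axin2 from -0.27 to 0.18, Amh from -0.090 to 0.59, Bmp2 from -0.18 to 0.75, Plk1 from -0.017 to 0.66 and Ier2 from -0.013 to 0.47. Leaving out the first XX library turned Fst, Axin2, Amh, Plk1 and Ier2; the second XY library turned Fst, Axin2 and Bmp2; the second XX library turned Bmp2. Among the genes picked by the naming rule above, no other log2 fold change turned sign. Genes named outside that rule, such as Sox8, Sox13 and Kctd14, were not checked in this way. The cause was not tested. At 2 libraries a group, depth is not the only limit: the median chi-square per gene between replicates was 4.07 in XX and 1.47 in XY, where sampling noise alone would give a value below 1.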

Other observations

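Lmo3, a LIM-only transcriptional cofactor gene, was among the few strongly separated genes with every XX library above every XY library. Its level, on the scale of all 8 libraries, was 73.7 and 96.8 (XX wild type), 42.6 and 41.1 (XX null), 34.6 and 28.9 (XY wild type) and 38.0 and 28.7 (XY null). Cwc22, a splicing factor gene with many copies in some mouse strains, stood at 34213 in the first XX wild type library and 59671 in the second XX null library, and between 1080.0 and 1329 in the other 6.

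Some genes on chromosome 17 varied between libraries without following sex, although the chromosome held 13 strongly separated genes of 793 tested (1.64%), near the 1.46% over all genes. Glo1, a glyoxalase gene at 30592866 to 30612659, had levels of 3241 and 4729 (XX wild type), 1486 and 1995 (XY wild type), 1343 and 1420.0 (XX null) and 4142 and 3779 (XY null). Its neighbour Dnah8, a dynein heavy chain gene at 30624354 to 30875264, had 149 and 169 (XX wild type), 39.6 and 80.8 (XY wild type), 39.6 and 40.1 (XX null) and 238 and 150 (XY null). For both genes the sex difference thus ran in opposite directions in the 2 genotypes, and the test of that difference gave a limma adjusted p of 0.202 for Glo1 and 0.231 for Dnah8. Rps18, Trim10, H2-T22, H2-T23 and H2-T24, from the same chromosome, were also strongly separated between the wild type groups, with XX higher. In the null, Rps18 and H2-T24 were instead higher in XY (log2 fold change 0.62 and 0.74), and the groups overlapped for Trim10. Null values of H2-T22 and H2-T23 are not given here. These genes were singled out after their values were seen, and no cause was tested.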
